A study of Homo sapiens with 12 samples.

Results

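Genes of homologous recombination and of the Fanconi anaemia pathway were examined in IMR-90 cells, fibroblasts of human lung that stop dividing after a limited number of population doublings. The gene set was a list of 37 names, grouped by the known roles of their products in the 2 pathways. Of these, 33 were measured, among 19775 genes on the arrays, by 66 probe sets that each name a single gene: 15 genes by 1 probe set and 18 by the mean of several. The other 4 are not analysed here. RNA came from 4 groups of 3 arrays: old, nonsenescent cells kept at 3% oxygen to population doubling 53, senescent cells kept at 20% oxygen to population doubling 48, and young cells of population doubling 30, kept at 3% in the third group and at 20% in the fourth. All groups were the same purchased cell line, received at population doubling 27, and were harvested at 80% confluency with no other treatment given in the labels. Oxygen levels had an incubator each, so oxygen and incubator cannot be told apart in any comparison between 3% and 20%. Only the word biological in the sample titles speaks for separate cultures within a group; if the 3 arrays share a culture, the p-values measure technical spread alone.

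Homologous recombination repairs a DNA double-strand break, or restarts a stalled replication fork, by copying an intact sister chromatid. Nucleases first cut back the broken ends to single strands, a recombinase filament then invades the sister duplex with the help of mediator proteins, and the joined molecules are finally dissolved or cut apart. Fanconi anaemia proteins detect DNA strands linked to each other, attach ubiquitin to a clamp on the DNA and pass the lesion to nucleases and to recombination. Because a sister chromatid is needed, these pathways work mainly in cells that replicate their DNA, and many of their genes are known to be transcribed as cells enter S phase.

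Each value below is a signal on the log2 scale set against the probe set's own median across the 12 arrays. For a gene of 1 probe set, 0 lies midway between the 2 middle arrays. Where all 3% arrays of such a gene lie above all 20% arrays, the values on the 2 sides of the gap are therefore equal and opposite. Absolute levels cannot be read from values set against a median. For the same reason the presence or absence of the defining markers of fibroblasts, or of any other cell type, could not be checked. Of 11 fibroblast markers, 1 was higher and 4 were lower in young cells at 3% oxygen than at 20%, 2 were higher and 2 lower in old 3% cells than in senescent 20% cells, and 1 was higher and 5 lower in senescent cells than in young cells at 20%; their part in the results was not tested. Of 5 pericyte and smooth muscle markers, 2 were higher and 1 lower in old 3% than in senescent 20% cells. In young cells at 3% against 20%, 1 was higher and 1 lower, and 1 was higher in old than in young cells at 3%. Of 6 epithelial markers, 1 was lower in young cells at 3% than at 20%. No call was given by the 5 endothelial and 4 immune markers. Over all genes 11.8% were called in young cells between the oxygen levels and 12.5% in senescent against young cells at 20%. For old 3% against senescent 20% cells the share was 11%. The part of these markers was not tested. In RNA from whole cultures, fewer cells of a type and less RNA per cell cannot be told apart. The difference between the 3' and 5' control probe sets of ACTB, a sign of RNA quality, ran from -0.22 to 0.02 in the old 3% arrays, 0.02 to 0.35 in the senescent 20% arrays, -0.18 to 0.71 in the young 3% arrays and -0.19 to 0.25 in the young 20% arrays. The highest of these values was that of replicate 2 of the young 3% group; without this array 17 members were called in young cells between the oxygen levels and 18 in late cells, the same counts as with it. In young cells the genes behind the count differed: without the array MRE11 was no longer called (adjusted p = 0.0602) and RAD51C was (adjusted p = 0.0187). The interaction call passed from BRIP1 (adjusted p = 0.0685 without the array) to RMI2 (log2 difference 0.64, adjusted p = 0.0485), and the count for senescent against young cells at 20% was 7 in place of 5.

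In the limma fit over all 12 arrays, 20 of the 33 genes differed among the 4 groups at an adjusted p under 0.05, where 20% of all genes did. For 17 of the 33 every array at 3% oxygen lay above every array at 20%, an order found for 3.57% of all genes, and for 0 of the 33 the order was the reverse (2.54% of all genes). The 17 genes were BRCA1, BARD1, BRIP1, MRE11, EXO1, RAD51AP1, RAD54B, FANCB, FANCE, FANCG, FANCL, FANCM, UBE2T, FANCI, BLM, RMI1 and RMI2. The mean over the 33 genes on single arrays ran from 0.23 to 0.43 in old cells at 3% oxygen, -0.42 to -0.39 in senescent cells at 20%, 0.23 to 0.39 in young cells at 3% and -0.28 to -0.22 in young cells at 20%. Both 3% groups thus lay above both 20% groups on every array; the old and young 3% groups overlapped, and the senescent arrays lay below the young 20% arrays.

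**Figure D1:**
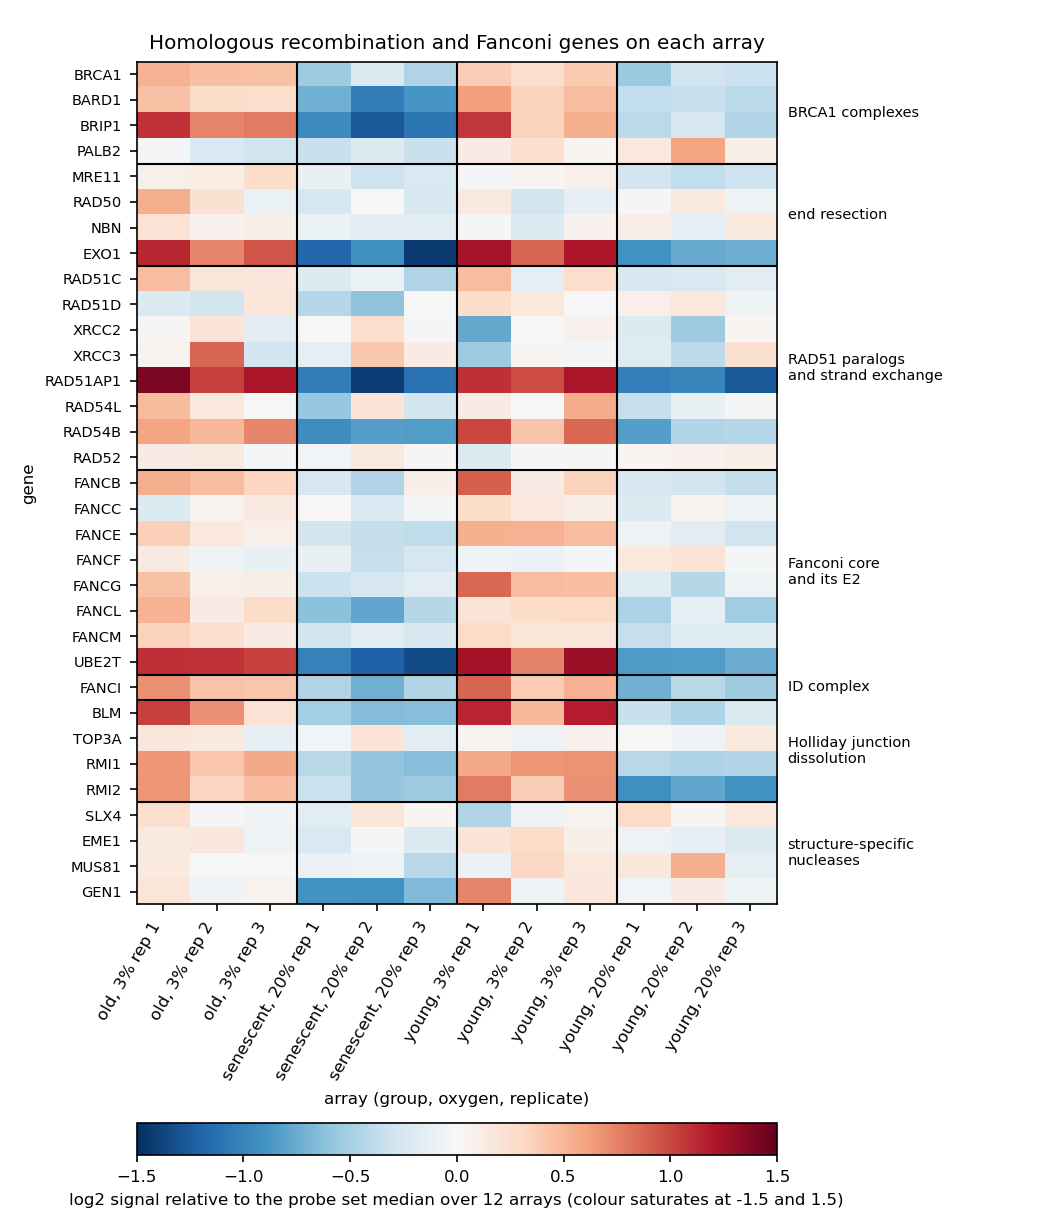
Values of the 33 measured repair genes (rows, grouped by role) on the 12 arrays (columns, by group), as log2 signal relative to the probe set median; the colour bar gives the scale. For 17 genes all 6 columns at 3% oxygen are higher than all 6 columns at 20%.

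Young cells at 3% oxygen had more transcript of 17 of the 33 genes than young cells at 20%, and less of 0. Over all genes 4.96% were called higher and 6.84% lower in this comparison. The strand-exchange cofactor RAD51AP1 was 4.56-fold higher, the resection nuclease EXO1 3.74-fold and the ubiquitin-conjugating enzyme UBE2T 3.73-fold, and 9 genes were at least 2-fold higher. The median log2 change of the 33 genes was 0.40, against -0.03 for all genes. The structure-specific nucleases MUS81, EME1, SLX4 and GEN1 were not called. In the same comparison 18 of 20 mitosis and proliferation genes were higher, and their part in the result was not tested.

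Old cells at 3% oxygen set against senescent cells at 20% had more transcript of 18 genes and less of 0, where 6.59% of all genes were called higher and 4.41% lower. The change was positive, called or not, for 32 of the 33 genes, and for 45.7% of all genes. RAD51AP1 was 5.32-fold higher, UBE2T 4.79-fold, EXO1 4.32-fold and the helicase BRIP1 3.91-fold. The median log2 change was 0.46, against -0.02 for all genes. Here 20 of 20 mitosis and proliferation genes were higher. This comparison and the one in young cells have no array in common, but share the estimate of each gene's spread from all 12 arrays. They shared 16 called genes, which is 94.1% of those called in young cells and 88.9% of those called in late cells; over all genes the shared calls were 50.3% and 37.8% of the 2 sets of higher genes, or 2.49% of the genes tested. Population doubling also differed between the old and the senescent cells, so oxygen, senescence and the number of doublings change together here. Throughout, a change in late cells, also where named between oxygen levels, is this comparison and carries all of these differences.

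Senescent cells at 20% oxygen had less transcript of 5 of the 33 genes than young cells at 20%, and more of 0. Called lower were 7.84% of all genes, and 4.67% were called higher. The 5 genes were GEN1, a nuclease that cuts Holliday junctions, with a log2 change of -0.82 ± 0.17, BRIP1 with -0.73 ± 0.17, the bridging protein PALB2 with -0.57 ± 0.13, BARD1, the partner of BRCA1, with -0.51 ± 0.11, and the Fanconi core subunit FANCF with -0.35 ± 0.10 (SE, n = 3 a group). The median was -0.11, against 0.04 for all genes, and 10 genes had an unadjusted p under 0.05, where 21.7% of all genes did. For 7 genes (BARD1, BRIP1, EXO1, FANCF, UBE2T, BLM and GEN1) the senescent arrays lay below all 9 others, an order that 4.15% of all genes had. The count of called genes depended on single arrays and on their weighting: it was 3 without replicate 2 of the young 20% group, 7 without replicate 2 of the young 3% group, and 14 (12 lower and 2 higher) with array quality weights. This comparison shares its young arrays with the oxygen comparison in young cells and its senescent arrays with that in late cells.

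Between old and young cells, both at 3% oxygen, limma called 0 of the 33 genes, with 1.74% of all genes called. At an unadjusted p under 0.05 limma gave 3, all lower in the old cells: PALB2, FANCE and FANCG, against 14.2% of all genes. The count was 0 under every alternative run. Log2 changes ran from -0.39 for FANCG to 0.39 for XRCC3, with a median of -0.01. The interaction, which is the senescent minus young change at 20% less the old minus young change at 3%, was called for 1 gene, BRIP1, against 6.44% of all genes; 7 genes had an unadjusted p under 0.05, where 17.9% of all genes did.

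**Figure D2:**
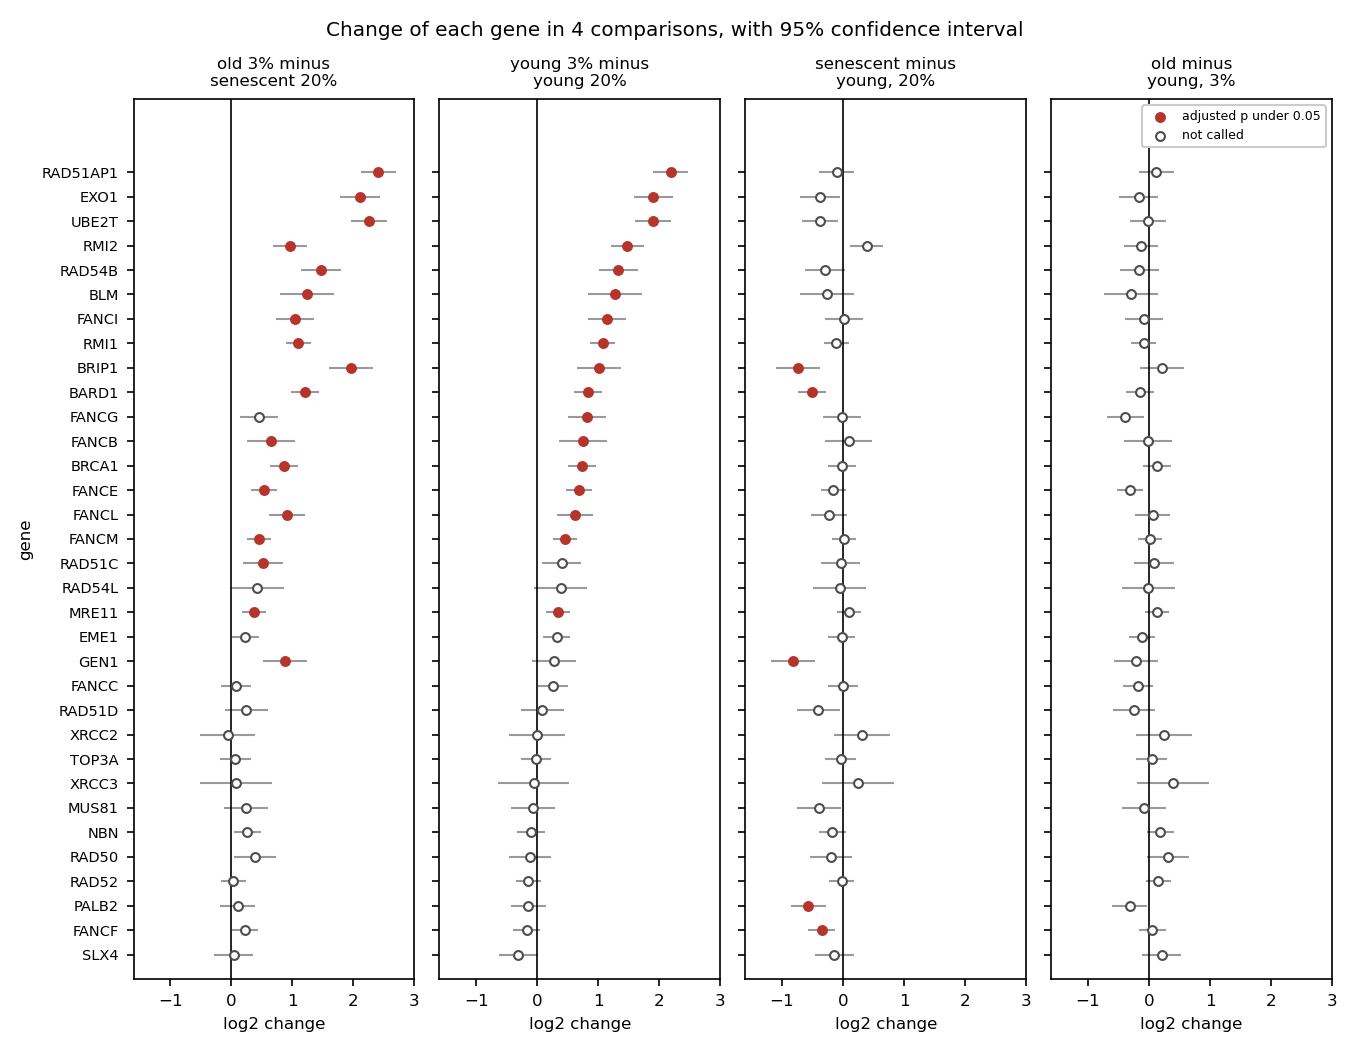
Log2 change of each of the 33 genes (points) with its 95% confidence interval (lines) in 4 comparisons, ordered by the change in young cells; filled points have an adjusted p under 0.05. Filled points lie right of 0 in the 2 oxygen comparisons (18 in late cells, 17 in young cells), 5 lie left of 0 for senescent against young cells, and 0 points are filled for old against young cells.

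BRCA1 and its partners carry the ubiquitin ligase and the scaffold that steer a break towards recombination. BRCA1 itself read 0.52, 0.45 and 0.44 in the old 3% arrays, -0.54, -0.22 and -0.45 in the senescent 20% arrays, 0.37, 0.27 and 0.40 in the young 3% arrays and -0.55, -0.29 and -0.33 in the young 20% arrays. All 3% arrays lay above all 20% arrays, the old arrays lay above the young ones at 3% (log2 change 0.13 ± 0.11, adjusted p = 0.545, not called), and senescent and young arrays overlapped at 20%. Its log2 change was 0.87 ± 0.11 between old 3% and senescent 20% cells (adjusted p = 0.000104) and 0.73 ± 0.11 between young cells at 3% and 20% (adjusted p = 0.000455). The 2 probe sets of BRCA1 differed in size: 1 gave 1.42 in young cells and 1.62 in late cells, the other 0.04 and 0.13. BARD1, which forms the ligase with BRCA1, read 0.44, 0.28 and 0.27 in the old 3% arrays, -0.72, -1.03 and -0.88 in the senescent 20% arrays, 0.61, 0.34 and 0.47 in the young 3% arrays and -0.37, -0.33 and -0.40 in the young 20% arrays. Its senescent arrays were the lowest, its young 20% arrays came next, and the 2 groups at 3% overlapped. BARD1 fell by 0.51 on the log2 scale in senescent against young cells at 20% (adjusted p = 0.00627). It was higher by 1.21 ± 0.11 in old 3% against senescent 20% cells and by 0.84 ± 0.11 in young cells at 3% against 20%. Of its 3 probe sets, 1 was not called in these comparisons, with -0.07, 0.60 and 0.45 in the same order. The other 2 gave -0.77 and -0.68 for senescent against young cells.

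BRIP1, a helicase that binds BRCA1 and is also a Fanconi anaemia gene, had the widest spread of the BRCA1 partners. It read 1.08, 0.73 and 0.78 in the old 3% arrays, -0.95, -1.26 and -1.09 in the senescent 20% arrays, 1.06, 0.34 and 0.54 in the young 3% arrays and -0.40, -0.25 and -0.44 in the young 20% arrays. The 4 groups fell into 3 levels, with both 3% groups highest, young 20% cells below them and senescent cells lowest. The log2 change in oxygen comparisons was 1.97 ± 0.17 in late cells (adjusted p = 4.59e-06) and 1.02 ± 0.17 in young cells (adjusted p = 0.00126). Senescent cells differed from young cells at 20% by -0.73 ± 0.17 (adjusted p = 0.0106, and 0.0502 without replicate 2 of the young 20% group), and old cells from young cells at 3% by 0.22 ± 0.17 (adjusted p = 0.517). The difference between those 2 changes, the interaction, was -0.95 ± 0.24 (adjusted p = 0.0314); it was no longer called when any of 8 of the 12 arrays was left out. With the BRIP1 probe set of largest SD alone, the senescent and the young oxygen changes were also not called (adjusted p = 0.110 and 0.0913). PALB2, which links BRCA1 to the loading of the recombinase, read -0.03, -0.22 and -0.30 in the old 3% arrays, -0.33, -0.21 and -0.33 in the senescent 20% arrays, 0.13, 0.24 and 0.03 in the young 3% arrays and 0.15, 0.60 and 0.09 in the young 20% arrays. The senescent arrays lay below the young 20% arrays and the old arrays below the young 3% arrays. Of these, the first difference was called (adjusted p = 0.0118) and the second was not (log2 change -0.32 ± 0.13, adjusted p = 0.318).

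Of the 4 measured genes of end resection, EXO1 and MRE11 were called between the oxygen levels. EXO1, the exonuclease that carries out long-range resection, read 1.13, 0.74 and 0.95 in the old 3% arrays, -1.17, -0.92 and -1.43 in the senescent 20% arrays, 1.24, 0.87 and 1.21 in the young 3% arrays and -0.91, -0.75 and -0.74 in the young 20% arrays. The lowest of the 6 arrays at 3% was 0.74 and the highest of the 6 at 20% was -0.74, a symmetry set by the centring. The change was 2.11 ± 0.15 in late cells (adjusted p = 8.88e-07) and 1.90 ± 0.15 in young cells (adjusted p = 2.54e-06). MRE11, RAD50 and NBN form the complex that senses the break and starts resection. MRE11, the nuclease subunit, read 0.07, 0.11 and 0.28 in the old 3% arrays, -0.11, -0.31 and -0.23 in the senescent 20% arrays, -0.03, 0.03 and 0.08 in the young 3% arrays and -0.28, -0.37 and -0.31 in the young 20% arrays. Its oxygen change was 0.37 ± 0.09 in late cells (adjusted p = 0.0178) and 0.34 ± 0.09 in young cells (adjusted p = 0.0257), with the 3% arrays above the 20% arrays. The 3 probe sets of MRE11 spread from -0.01 to 0.96 in young cells, and the call was lost when any of 5 single arrays was left out in young cells, or any of 3 in late cells. RAD50, the ATPase that bridges the ends, read 0.55, 0.23 and -0.09 in the old 3% arrays, -0.26, -0.01 and -0.24 in the senescent 20% arrays, 0.15, -0.28 and -0.12 in the young 3% arrays and 0.01, 0.14 and -0.08 in the young 20% arrays. Its oxygen levels overlapped, and it had log2 changes of 0.40 ± 0.16 in late cells and -0.11 ± 0.16 in young cells. NBN, which recruits the checkpoint kinase ATM, read 0.22, 0.07 and 0.09 in the old 3% arrays, -0.09, -0.16 and -0.16 in the senescent 20% arrays, -0.03, -0.22 and 0.06 in the young 3% arrays and 0.10, -0.13 and 0.15 in the young 20% arrays. The old arrays lay above the senescent ones, the young groups overlapped, and the changes were 0.26 ± 0.10 and -0.10 ± 0.10. Neither gene passed the test in any comparison. Of the 5 probe sets of NBN, 1 was called lower in young cells at 3% (-0.48), in senescent against young cells (-0.76) and in the interaction (-0.84).

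Strand exchange held the largest difference of the whole set, both in young cells at 3% against 20% and in old 3% against senescent 20% cells. RAD51AP1, which binds the recombinase and stimulates strand invasion, read 1.41, 1.03 and 1.23 in the old 3% arrays, -1.04, -1.41 and -1.12 in the senescent 20% arrays, 1.09, 0.98 and 1.23 in the young 3% arrays and -1.02, -0.98 and -1.26 in the young 20% arrays. The 3% arrays span 0.98 to 1.41 and the 20% arrays -1.41 to -0.98, with the ages mixed within each. The change was 2.41 ± 0.13 in late cells (adjusted p = 1.05e-07), where it ranked 54 by size among all genes, and 2.19 ± 0.13 in young cells (adjusted p = 3.2e-07), where it ranked 55. RAD54B, a DNA translocase related to RAD54L, read 0.60, 0.50 and 0.73 in the old 3% arrays, -0.93, -0.83 and -0.83 in the senescent 20% arrays, 1.00, 0.43 and 0.86 in the young 3% arrays and -0.83, -0.44 and -0.43 in the young 20% arrays. It was higher at 3% by 1.47 ± 0.15 in late cells and 1.33 ± 0.15 in young cells (adjusted p = 2.28e-05 and 5.57e-05), again with no overlap between oxygen levels. RAD54L, the translocase that remodels the filament, had log2 changes of 0.42 ± 0.20 in late cells and 0.39 ± 0.20 in young cells, with adjusted p = 0.263 and 0.279; its arrays overlapped between oxygen levels.

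Of the measured paralogs of the recombinase, which stabilise its filament, RAD51C alone was called. It read 0.47, 0.18 and 0.17 in the old 3% arrays, -0.21, -0.09 and -0.45 in the senescent 20% arrays, 0.46, -0.14 and 0.26 in the young 3% arrays and -0.24, -0.23 and -0.15 in the young 20% arrays. Replicate 2 of the young 3% group lay among the 20% arrays, and the other 3% arrays lay above them. The change was 0.52 ± 0.15 in late cells (adjusted p = 0.0413) and 0.40 ± 0.15 in young cells (adjusted p = 0.115); the young difference was called when replicate 2 of the young 3% group was left out (log2 change 0.57, adjusted p = 0.0187). The late call was lost when any of 9 single arrays was left out, and 1 of its 2 probe sets was called there (0.70, with 0.35 for the other). RAD51D, XRCC2 and XRCC3 were called in 0 of the comparisons, as was RAD52, a strand-annealing protein. RAD51D read -0.22, -0.27 and 0.19 in the old 3% arrays, -0.43, -0.61 and -0.01 in the senescent 20% arrays, 0.28, 0.16 and -0.01 in the young 3% arrays and 0.08, 0.16 and -0.07 in the young 20% arrays. XRCC2 read 0.01, 0.21 and -0.16 in the old 3% arrays, 0.0004, 0.26 and -0.03 in the senescent 20% arrays, -0.77, -0.0004 and 0.07 in the young 3% arrays and -0.20, -0.54 and 0.03 in the young 20% arrays. XRCC3 read 0.05, 0.88 and -0.29 in the old 3% arrays, -0.13, 0.40 and 0.12 in the senescent 20% arrays, -0.53, 0.03 and -0.03 in the young 3% arrays and -0.19, -0.39 and 0.23 in the young 20% arrays. The oxygen levels overlapped for all 3 of these paralogs, and replicate 1 of the young 3% group was the lowest array for XRCC2 and XRCC3. The late oxygen changes of the 4 genes were 0.25 ± 0.16, -0.06 ± 0.21, 0.08 ± 0.27 and 0.03 ± 0.09. For XRCC3 the arrays within a group spread widely, from -0.29 to 0.88 in old 3% cells, and the 95% interval of the late change ran from -0.51 to 0.67.

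**Figure D3:**
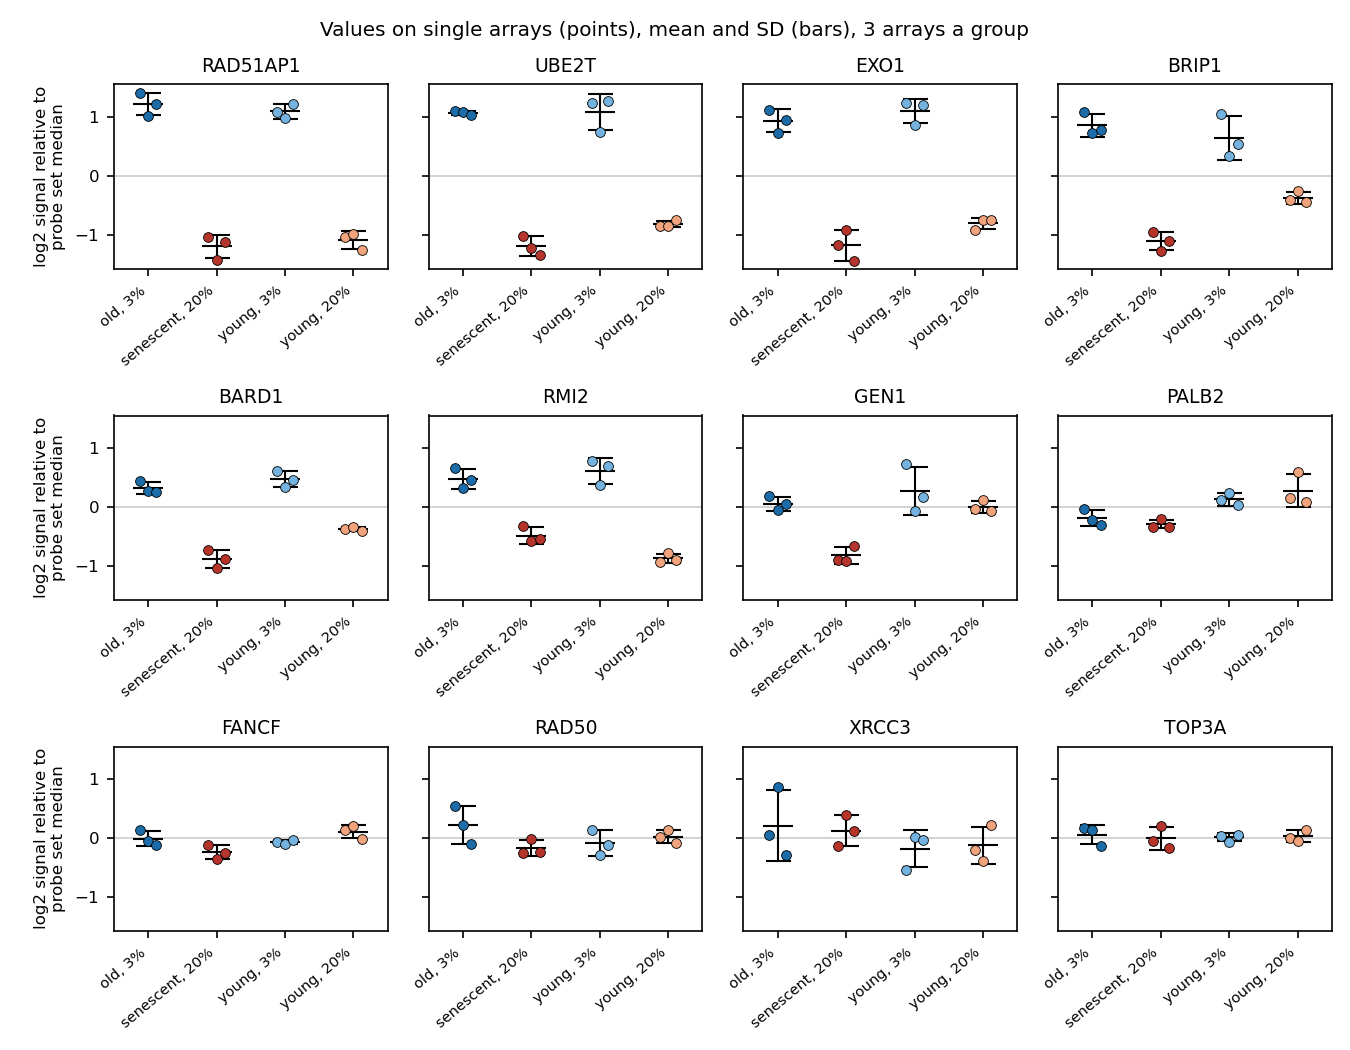
Values of 12 of the genes on single arrays (points) with the mean and SD of 3 arrays (bars), as log2 signal relative to the probe set median, for old 3%, senescent 20%, young 3% and young 20% cells. RAD51AP1, UBE2T and EXO1 form 2 blocks by oxygen level, BRIP1 and BARD1 have an extra step down in senescent cells, GEN1 is low in the senescent arrays, and RAD50, XRCC3 and TOP3A overlap across all groups.

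The Fanconi core complex is a ubiquitin ligase whose catalytic subunit is FANCL and whose conjugating enzyme is UBE2T. UBE2T read 1.10, 1.08 and 1.03 in the old 3% arrays, -1.01, -1.21 and -1.34 in the senescent 20% arrays, 1.25, 0.74 and 1.28 in the young 3% arrays and -0.85, -0.84 and -0.74 in the young 20% arrays. The lowest array at 3% was 0.74 and the highest at 20% was -0.74, and the senescent arrays were the lowest. The change was 2.26 ± 0.14 in late cells (adjusted p = 2.05e-07) and 1.90 ± 0.14 in young cells (adjusted p = 1.2e-06). FANCL read 0.53, 0.13 and 0.27 in the old 3% arrays, -0.61, -0.77 and -0.43 in the senescent 20% arrays, 0.19, 0.28 and 0.28 in the young 3% arrays and -0.47, -0.13 and -0.52 in the young 20% arrays. It was 0.91 ± 0.13 higher in late cells at 3% and 0.62 ± 0.13 higher in young cells (adjusted p = 0.000574 and 0.00835), with the oxygen levels separated by a narrow gap.

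Of the other core subunits, FANCB, FANCE and FANCM were called in both oxygen comparisons. FANCB, part of the catalytic module, read 0.54, 0.46 and 0.33 in the old 3% arrays, -0.25, -0.45 and 0.09 in the senescent 20% arrays, 0.90, 0.13 and 0.34 in the young 3% arrays and -0.25, -0.29 and -0.36 in the young 20% arrays. It changed by 0.65 ± 0.18 in late cells and 0.76 ± 0.18 in young cells (adjusted p = 0.0353 and 0.0144), and replicate 2 of the young 3% group lay just above the highest senescent array. The late call of FANCB was lost when any of 6 single arrays was left out. Its probe set of largest SD gave 0.26 in late cells and 0.97 in young cells, neither called (adjusted p = 0.871 and 0.112). Of the 4 probe sets of FANCB, 3 were called in late cells (0.86, 0.68 and 0.80) and 2 in young cells (0.70 and 0.80). FANCE, which contacts the substrate, read 0.36, 0.16 and 0.08 in the old 3% arrays, -0.28, -0.36 and -0.38 in the senescent 20% arrays, 0.54, 0.53 and 0.46 in the young 3% arrays and -0.08, -0.17 and -0.30 in the young 20% arrays. The young 3% arrays were the highest and the old arrays came next, all above the 20% arrays. FANCE changed by 0.54 ± 0.10 and 0.69 ± 0.10 (adjusted p = 0.00242 and 0.000386). FANCM, the translocase that anchors the complex to DNA, read 0.34, 0.24 and 0.12 in the old 3% arrays, -0.27, -0.16 and -0.24 in the senescent 20% arrays, 0.29, 0.18 and 0.18 in the young 3% arrays and -0.35, -0.19 and -0.18 in the young 20% arrays. The oxygen levels did not overlap, and it changed by 0.46 ± 0.09 and 0.45 ± 0.09 (adjusted p = 0.00527 and 0.00528). Of the 4 probe sets of FANCM, 1 was called in late cells, with 1.39, where the others gave 0.08, 0.13 and 0.23; in young cells 2 were called, with 0.86 and 0.55, and the others gave 0.18 and 0.22.

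FANCG, an adaptor subunit, read 0.44, 0.08 and 0.09 in the old 3% arrays, -0.33, -0.26 and -0.17 in the senescent 20% arrays, 0.86, 0.46 and 0.45 in the young 3% arrays and -0.19, -0.43 and -0.08 in the young 20% arrays. Its young 3% arrays were the highest, the old 3% arrays came next and the 2 groups at 20% overlapped. The young oxygen change of 0.82 ± 0.14 was called (adjusted p = 0.00177), and the late change of 0.45 ± 0.14 was not (adjusted p = 0.0626, or 0.0369 with the replicate number as a block in a fit of these 6 arrays). FANCC, a further core subunit, read -0.21, 0.05 and 0.14 in the old 3% arrays, -0.01, -0.23 and -0.03 in the senescent 20% arrays, 0.27, 0.16 and 0.10 in the young 3% arrays and -0.20, 0.04 and -0.08 in the young 20% arrays. Its young 3% arrays lay above its young 20% arrays and its late groups overlapped. FANCC had log2 changes of 0.08 ± 0.11 in late cells and 0.26 ± 0.11 in young cells and was called in 0 comparisons.

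FANCF, an adaptor within the core complex, was the only subunit of it that the test called in senescent against young cells, and it read 0.14, -0.05 and -0.11 in the old 3% arrays, -0.11, -0.35 and -0.25 in the senescent 20% arrays, -0.06, -0.09 and -0.03 in the young 3% arrays and 0.14, 0.21 and -0.01 in the young 20% arrays. The senescent arrays were the lowest, level at their upper end with the lowest old array. In young cells the 3% arrays lay below the 20% arrays and in late cells above them, in each case by a small gap, with changes of 0.23 ± 0.10 in late cells and -0.17 ± 0.10 in young cells (adjusted p = 0.218 and 0.343). The interaction was -0.40 ± 0.14 and not called (adjusted p = 0.138), but the probe set of largest SD gave -0.88 (adjusted p = 0.0457). The 2 probe sets of FANCF disagreed in sign for senescent against young cells, with -0.76 and 0.06, and the call of -0.35 (adjusted p = 0.0392) was lost when any of 6 single arrays was left out. The core complex attaches ubiquitin to a clamp of which FANCI is a subunit. FANCI read 0.69, 0.43 and 0.42 in the old 3% arrays, -0.45, -0.72 and -0.44 in the senescent 20% arrays, 0.87, 0.38 and 0.52 in the young 3% arrays and -0.72, -0.41 and -0.53 in the young 20% arrays. Its lowest array at 3% was 0.38 and its highest at 20% was -0.41, and the change was 1.05 ± 0.14 in late cells and 1.15 ± 0.14 in young cells (adjusted p = 0.000273 and 0.00013).

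Holliday junctions, the crossed intermediates of recombination, are dissolved without crossing over by the helicase BLM, the topoisomerase TOP3A and the cofactors RMI1 and RMI2. BLM read 1.02, 0.68 and 0.22 in the old 3% arrays, -0.50, -0.65 and -0.64 in the senescent 20% arrays, 1.15, 0.48 and 1.17 in the young 3% arrays and -0.34, -0.46 and -0.22 in the young 20% arrays. Its arrays at 3% spread from 0.22 to 1.17, all above those at 20%. BLM changed by 1.24 ± 0.20 in late cells (adjusted p = 0.00137) and 1.27 ± 0.20 in young cells (adjusted p = 0.00108). RMI1 read 0.66, 0.42 and 0.57 in the old 3% arrays, -0.42, -0.59 and -0.64 in the senescent 20% arrays, 0.57, 0.66 and 0.67 in the young 3% arrays and -0.42, -0.47 and -0.44 in the young 20% arrays. It changed by 1.10 ± 0.09 and 1.07 ± 0.09 (adjusted p = 4.87e-06 and 6.65e-06), with small SDs in all 4 groups. RMI2 read 0.67, 0.32 and 0.46 in the old 3% arrays, -0.32, -0.58 and -0.54 in the senescent 20% arrays, 0.78, 0.37 and 0.69 in the young 3% arrays and -0.92, -0.78 and -0.90 in the young 20% arrays. Its order was the 3% groups highest, then senescent cells, then young cells at 20%. The oxygen change was 0.96 ± 0.13 in late cells (adjusted p = 0.000222) and 1.48 ± 0.13 in young cells (adjusted p = 5.61e-06). The senescent arrays lay above the young 20% arrays, by 0.39 ± 0.13 (adjusted p = 0.0699, not called). This difference was called with array quality weights (0.54, adjusted p = 0.000124) and after quantile normalization again (adjusted p = 0.0427). It was also called with the groups compared alone, without replicate 2 of the young 3% group and with the RNA quality covariate (adjusted p = 0.0411, 0.0389 and 0.0324). TOP3A, in the same complex, read 0.17, 0.15 and -0.13 in the old 3% arrays, -0.04, 0.20 and -0.17 in the senescent 20% arrays, 0.04, -0.06 and 0.06 in the young 3% arrays and 0.003, -0.05 and 0.14 in the young 20% arrays. Its groups overlapped and it gave no call, with 0.06 ± 0.12 in late cells (95% interval -0.19 to 0.32) and -0.02 ± 0.12 in young cells (-0.27 to 0.24).

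Structure-specific nucleases cut junctions apart, and GEN1 does so alone, without a partner subunit. It read 0.18, -0.05 and 0.05 in the old 3% arrays, -0.89, -0.91 and -0.66 in the senescent 20% arrays, 0.73, -0.06 and 0.17 in the young 3% arrays and -0.04, 0.12 and -0.07 in the young 20% arrays. The senescent arrays lay below all others, and 1 young 3% array, replicate 1, lay above all others. GEN1 differed by -0.82 ± 0.17 between senescent and young cells at 20% (adjusted p = 0.0054) and by 0.88 ± 0.17 between old 3% and senescent 20% cells (adjusted p = 0.00369). Both calls share the senescent arrays and rest on 1 of its 2 probe sets, which gave -1.48 and 1.76, where the other gave -0.17 and -0.0026. The interaction of GEN1 was -0.61 ± 0.24 (adjusted p = 0.186), and it was called without replicate 1 of the young 3% group (-0.83, adjusted p = 0.0117). It was also called with the probe set of largest SD (-1.63, adjusted p = 0.00051). MUS81, EME1 (its partner) and SLX4 (the scaffold that holds nucleases together) were called in 0 comparisons. EME1 came nearest, with 0.32 ± 0.10 in young cells between the oxygen levels (adjusted p = 0.0603). In all, 12 of the 33 genes were called in none of the comparisons, nor in the interaction. Among these the largest change between groups, the interaction aside, was 0.42 for RAD54L, in late cells between the oxygen levels.

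Promoter sequences were examined because many of these genes moved together between oxygen levels. Windows of 300 bases (250 before the start of transcription and 50 after it) from RefSeq, build GRCh38.p14, were found for 29 of the 33 genes; NBN, RAD54B, FANCI and RMI2 had none in the table, and 9 genes had more than 1. The windows shown are those of the genes with large oxygen changes (RAD51AP1, EXO1, UBE2T and BRIP1) and of genes called in 0 comparisons (TOP3A and XRCC3), each read 5′ to 3′ on the strand of the gene, with capitals for a match to an E2F core. E2F factors bind such sites in genes of DNA replication and repair. The letters searched, on both strands, were TTCCCGC together with the variants TTCGCGC and also TTGCCGC as well as TTGGCGC.
RAD51AP1 (chr12:4538640-4538939, plus strand): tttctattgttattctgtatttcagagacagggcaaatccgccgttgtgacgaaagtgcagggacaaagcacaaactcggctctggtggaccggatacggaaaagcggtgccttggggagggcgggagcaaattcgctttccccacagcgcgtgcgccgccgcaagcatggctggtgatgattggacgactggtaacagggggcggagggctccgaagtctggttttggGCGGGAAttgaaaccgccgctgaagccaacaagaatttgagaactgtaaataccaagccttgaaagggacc
EXO1 (chr1:241847954-241848253, plus strand): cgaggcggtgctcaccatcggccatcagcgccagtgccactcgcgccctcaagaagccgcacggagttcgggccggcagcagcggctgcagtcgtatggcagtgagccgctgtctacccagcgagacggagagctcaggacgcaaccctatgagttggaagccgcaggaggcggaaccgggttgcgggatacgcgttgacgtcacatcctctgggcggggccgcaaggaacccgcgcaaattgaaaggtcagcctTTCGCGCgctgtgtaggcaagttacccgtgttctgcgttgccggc
UBE2T (chr1:202341887-202342186, minus strand): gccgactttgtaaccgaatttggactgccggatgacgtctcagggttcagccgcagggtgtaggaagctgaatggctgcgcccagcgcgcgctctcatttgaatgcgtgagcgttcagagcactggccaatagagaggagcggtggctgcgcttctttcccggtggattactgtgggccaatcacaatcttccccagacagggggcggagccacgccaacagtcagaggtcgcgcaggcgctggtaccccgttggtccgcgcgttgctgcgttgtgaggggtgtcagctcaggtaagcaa
BRIP1 (chr17:61863479-61863778, minus strand): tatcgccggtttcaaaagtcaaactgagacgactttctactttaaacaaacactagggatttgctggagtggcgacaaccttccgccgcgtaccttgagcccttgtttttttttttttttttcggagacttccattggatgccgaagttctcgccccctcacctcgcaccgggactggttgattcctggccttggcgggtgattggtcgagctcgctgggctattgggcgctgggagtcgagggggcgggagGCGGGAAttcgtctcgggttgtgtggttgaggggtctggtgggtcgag
TOP3A (chr17:18314945-18315244, minus strand): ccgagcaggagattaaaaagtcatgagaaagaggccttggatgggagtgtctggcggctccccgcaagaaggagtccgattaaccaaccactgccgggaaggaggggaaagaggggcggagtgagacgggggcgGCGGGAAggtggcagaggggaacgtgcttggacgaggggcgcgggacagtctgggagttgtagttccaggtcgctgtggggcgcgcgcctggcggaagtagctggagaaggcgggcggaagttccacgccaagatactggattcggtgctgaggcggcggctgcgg
XRCC3 (chr14:103715402-103715701, minus strand): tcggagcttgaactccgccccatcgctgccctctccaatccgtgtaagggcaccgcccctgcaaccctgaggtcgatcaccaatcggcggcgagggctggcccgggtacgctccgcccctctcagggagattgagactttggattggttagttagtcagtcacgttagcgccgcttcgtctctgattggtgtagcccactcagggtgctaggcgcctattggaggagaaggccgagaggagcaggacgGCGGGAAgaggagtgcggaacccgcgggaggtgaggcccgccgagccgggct
The match of RAD51AP1 began 21 bases before the start and that of EXO1 at base 6 after it. A further window of EXO1 in the table (chr1:241848481-241848780, not shown) held 0 matches; in the counts that follow, a gene holds a match if any of its windows does. The match of BRIP1 began at base 3 after the start. In genes that were not called, the match began 116 bases before the start in TOP3A and 2 bases before it in XRCC3, and UBE2T, whose change was among the 3 largest, held none. A match is a description of letters and does not show that a factor binds there.

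A match to an E2F core was present in 20 of the 29 genes with a window (69%), against 20.4% of the 15384 measured genes with a window and 13% of all 35116 windows. Among the genes called higher at 3% in both young and late cells, 9 of 13 held a match (69.2%), and among the other members 11 of 16 (68.8%). These 16 are not all without a call between a 3% and a 20% group. FANCG was called in young cells. RAD51C and GEN1 were called for old 3% against senescent 20% cells, where senescence and doublings also differ. Of all genes on the arrays called higher at 3% at both ages, 37.2% held a match.

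The letters TTTGAA of the cell cycle homology region, a site of repressor complexes in mitotic genes, were present in 3 of the 29 genes (10.3%): BRIP1, FANCC and UBE2T, against 15.6% of measured genes. They were in 2 of the 13 genes called at both ages (15.4%) and 1 of the other 16 (6.25%), and in 33.7% of all genes called higher at 3% at both ages. CCAAT, a site of the factor NF-Y, was present in 14 of 29 (48.3%), against 41.7% of measured genes. It was in 8 of the 13 genes called at both ages (61.5%) and 6 of the other 16 (37.5%), and in 56.3% of all genes called higher at 3% at both ages. These shares rest on few genes and were not tested.

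Of 39 other measured genes of the 2 pathways, from a list of cofactors and regulators, 9 were higher and 0 lower in old 3% against senescent 20% cells. In young cells at 3% against 20%, 7 were higher and 1 lower. Of all genes, 6.59% were called higher and 4.41% lower in the first comparison, and 4.96% and 6.84% in the second. The helicase and nuclease DNA2, which extends resection, was higher by 1.75 ± 0.19 in late cells and 1.15 ± 0.19 in young cells (adjusted p = 3.80e-05 and 0.00119). RPA3, a subunit of the protein that coats single strands, was higher by 1.07 ± 0.17 in late cells and 1.07 ± 0.17 in young cells. USP1, which removes ubiquitin from the Fanconi clamp, was higher by 0.99 ± 0.13 and 0.90 ± 0.13. EME2, a further partner of MUS81, was lower in young cells at 3% (-0.74 ± 0.13, adjusted p = 0.00161).

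In senescent against young cells at 20% oxygen, 7 of the 39 were lower and 0 higher, where 7.84% of all genes were called lower and 4.67% higher. EME2 was 2-fold lower (adjusted p = 0.000182), the ubiquitin ligase RFWD3 differed by -0.81 ± 0.19 (adjusted p = 0.0123), and PSMC3IP, a cofactor of strand exchange, by -0.61 ± 0.09 (adjusted p = 0.000628). Checkpoint and break-signalling genes gave 9 higher of 19 in late cells and 6 higher of 19 in young cells between the oxygen levels, with 0 lower. The kinase CHEK1 was higher by 1.24 ± 0.12 in late cells and 0.87 ± 0.12 in young cells. TIMELESS, which protects the replication fork, was higher by 0.98 ± 0.10 and 0.78 ± 0.10. TIPIN, its partner, differed between senescent and young cells at 20% by -0.91 ± 0.22 (adjusted p = 0.0151). It was 1 of 2 checkpoint and break-signalling genes called lower there (10.5% of the list, against 7.84% of all genes), and 0 were called higher. End-joining genes, the alternative to recombination, gave 5 higher of 13 in late cells and 2 higher of 13 in young cells. For the checkpoint and end-joining lists alike, the share of all genes called higher was 6.59% in late cells and 4.96% in young cells.

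**Figure D4:**
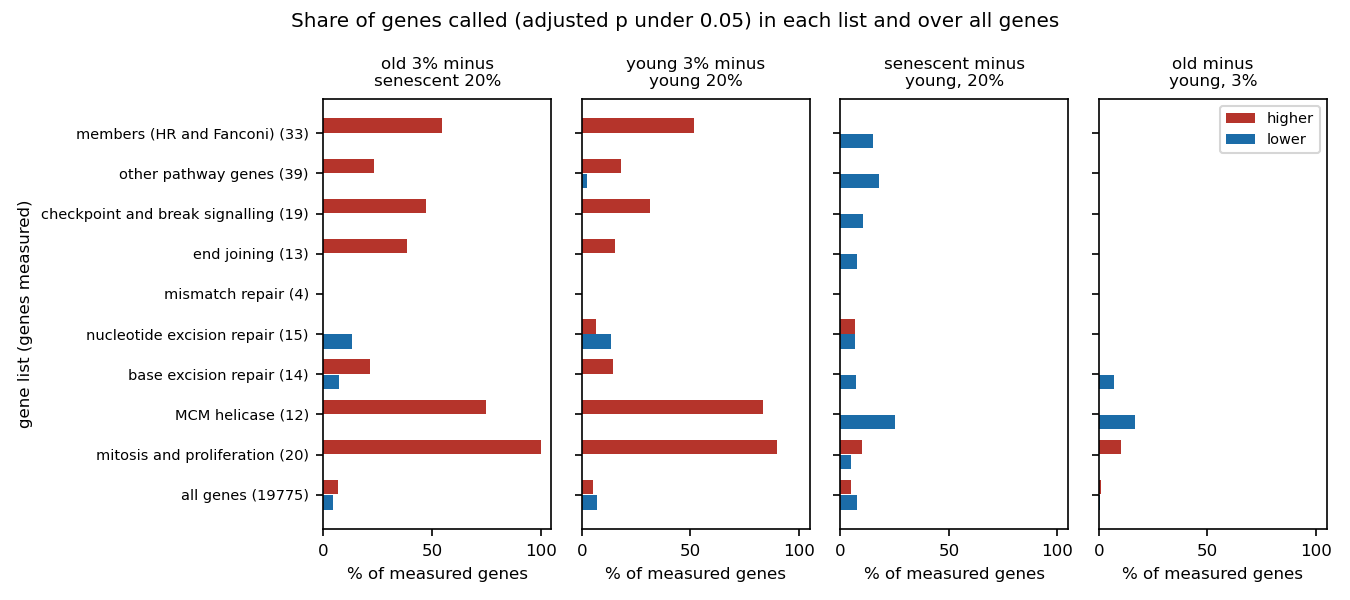
Share of the measured genes of each list called higher (red) or lower (blue) at an adjusted p under 0.05 in 4 comparisons, with all 19775 genes in the bottom row. The repair genes give 54.5% higher in late cells and 51.5% higher in young cells between the oxygen levels, and 15.2% lower in senescent against young cells at 20%.

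Genes of proliferation also differed between the 3% and the 20% groups. Of 20 mitosis and proliferation genes, 20 were higher in old 3% against senescent 20% cells and 18 in young cells at 3% against 20%, with median log2 changes of 2.18 and 1.87. The proliferation antigen MKI67 was higher by 1.68 ± 0.14 in late cells and 1.64 ± 0.14 in young cells. The mean of these 20 genes on single arrays ran from 1.00 to 1.27 in old 3% cells, -1.01 to -0.82 in senescent 20% cells, 0.70 to 0.78 in young 3% cells and -1.03 to -0.89 in young 20% cells. The 12 genes of the replicative MCM helicase and its CDC45, GINS and MCM10 partners gave 9 higher in late cells and 10 higher in young cells. Their array means were 0.25 to 0.33, -0.71 to -0.53, 0.50 to 0.61 and -0.36 to -0.25 in the same order of groups. Between senescent and young cells at 20% the mitosis genes gave 2 higher and 1 lower, and the MCM genes 0 higher and 3 lower. There 4.67% of all genes were called higher and 7.84% lower. Of 19 E2F factors and related regulators, 9 were higher and 2 lower (E2F3 and E2F6) in young cells at 3% against 20%. In old 3% against senescent 20% cells 8 were higher and 0 lower. For all lists of this paragraph, the shares of all genes were 4.96% higher and 6.84% lower in young cells between the oxygen levels. In late cells they were 6.59% and 4.41%. E2F1, an activator of S-phase genes, was higher in young cells at 3% than at 20% (1.02 ± 0.12, adjusted p = 9.86e-05) and not called in late cells (0.38 ± 0.12, adjusted p = 0.0687). FOXM1, a factor of mitotic genes, was higher in both, by 2.38 ± 0.22 in late cells and 2.31 ± 0.22 in young cells.

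**Figure D5:**
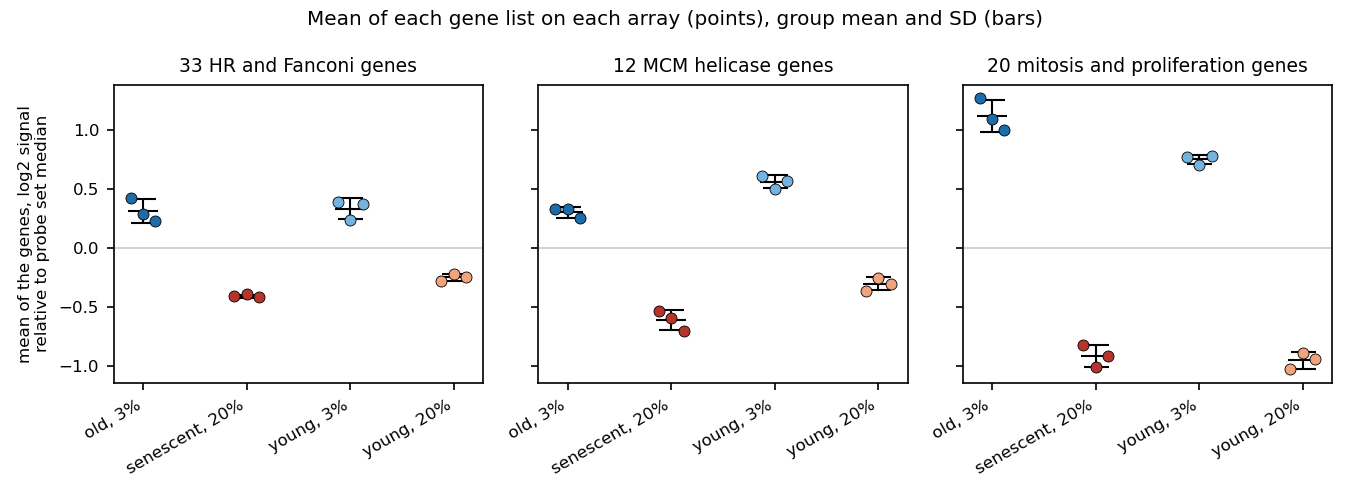
Mean of the 33 repair genes, the 12 MCM helicase genes and the 20 mitosis genes on each array (points) with group mean and SD (bars, 3 arrays a group), on the log2 scale. All 3 lists are higher in the 3% groups than in the 20% groups; the repair genes reach -0.42 at the lowest in senescent cells and 0.43 at the highest in old 3% cells.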

How the data were processed

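The authors processed the arrays with RMA (version not stated) into the deposited log2 values, per the submitters' processing notes. Each probe set's median over the 12 arrays is 0 (tolerance 1e-06), so the deposited log2 values had been centred by the authors. The base of the logarithm is not given in the sources used here and is taken as 2. Of 54675 probe sets, 41091 name 1 gene; 41037 of these matched a current symbol, and their mean was taken for each of 19775 genes. A mean for each group was estimated from the 12 arrays together by limma (version 3.58.1, under R 4.3.3), with two-sided moderated tests from eBayes. Benjamini-Hochberg adjustment ran over all genes in each comparison, and genes were called at an adjusted p under 0.05. Every adjusted p in the text is limma's, and ± is the standard error of a log2 change with 3 arrays a group, a number that limits the precision. The fit was tested on simulated data.

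The members and the gene lists were chosen with earlier results of these data known. Values of every array are given for members called in a comparison, up to 12 by size, and for members of the same complex; from other lists, up to 4 called genes per list and comparison. Deviations from the group means of same-numbered senescent and old arrays correlated at 0.129, 0.519 and 0.669, the only 2 groups where all 3 pairs did so above 0.1; the labels do not say what the numbers mean. Promoters were searched for fixed letters on both strands. Alternatives were the probe set with the largest SD, single probe sets, quantile normalization again, centring of arrays, robust eBayes, array weights, the replicate block, the groups compared alone, a filter on flat genes, stricter thresholds and each array left out. An RNA quality covariate and the block in senescent and old arrays alone were chosen after seeing the data.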

Additional observations from a re-analysis of the deposited data

Results flagged for a closer look

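Of the 33 genes, BRIP1 was the only 1 whose change from young to late cells differed between the oxygen levels by the interaction test. This is 3.03% of the 33, below the 6.44% of all genes that the test called. Its log2 change was -0.73 ± 0.17 for senescent against young cells at 20% oxygen and 0.22 ± 0.17 for old against young cells at 3%, and the difference between these was -0.95 ± 0.24 (SE, adjusted p = 0.0314). All 3 senescent arrays lay below all 3 young arrays at 20%, and the old and young arrays overlapped at 3%. The 2 probe sets of BRIP1 gave interactions of -1.22 and -0.68, neither called alone (adjusted p = 0.1055 and 0.0961). With the probe set of largest SD in place of the mean, FANCF and GEN1 were called and BRIP1 was not. Over the alternatives run the interaction of BRIP1 kept its sign, with values from -1.22 to -0.68 and adjusted p from 0.00298 to 0.105. The call was lost when any of 8 of the 12 arrays was left out.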

How the results depend on the processing

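Of 41 called results of single members, 32 kept their direction and call in every refit and without flat genes, single probe sets and stricter thresholds aside; 17 also passed an adjusted p under 0.01 and a log2 change of at least 1. With an array left out in turn, the members called numbered 16 to 19 for old 3% against senescent 20% cells, 15 to 18 for young cells between the oxygen levels, 3 to 7 for senescent against young cells, 0 to 0 for old against young cells, 0 to 2 for the interaction and 18 to 21 for the F test. Array quality weights gave 14 for senescent against young cells and 4 for the interaction, and the probe set with the largest SD gave 2 for the interaction. These 2 were FANCF (-0.88, adjusted p = 0.0457) and GEN1 (-1.63, adjusted p = 0.00051), and BRIP1 was no longer called (adjusted p = 0.0944). An adjusted p under 0.01 left 2 for senescent against young cells and 0 for the interaction. A log2 change of at least 1 left 9 in each oxygen comparison, 0 for senescent against young cells and 0 for the interaction. RNA quality as a covariate left 0 for the interaction (BRIP1, adjusted p = 0.0867). Single probe sets turned the sign of 3 results: FANCF for senescent against young cells (0.0617), MRE11 in young cells between the oxygen levels (-0.0073) and GEN1 in late cells (-0.0026). The replicate block kept all counts within 1.5 times, with 18 in late cells and 5 for senescent against young cells; it added EME1 in young cells (adjusted p = 0.0402), where the numbers do not pair the arrays. Fitted on the 6 late arrays only, the block gave 19, FANCG being the addition, and changed no other call there. The causes of these changes were not tested. Signal over background could not be read from centred values, and a planned filter that needs it was not run.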

Other observations

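Excision repair genes were read from 2 further lists. Of 14 base excision repair genes, 3 were higher and 1 lower in old 3% against senescent 20% cells, and 2 were higher and 0 lower in young cells at 3% against 20%. NEIL3, a glycosylase that also opens DNA crosslinks, was higher by 1.68 ± 0.36 in late cells (adjusted p = 0.00801) and by 2.07 ± 0.36 in young cells (adjusted p = 0.00190). UNG, which removes uracil from DNA, was higher by 0.44 ± 0.09 in young cells at 3% against 20% (adjusted p = 0.00488) and differed by -0.65 ± 0.09 between old and young cells at 3% (adjusted p = 0.00193). Of 15 nucleotide excision repair genes, 0 were higher and 2 lower (ERCC6 and CETN2) in old 3% against senescent 20% cells, 1 was higher and 2 lower (ERCC2 and GTF2H1) in young cells at 3% against 20%, and 1 was higher and 1 lower (GTF2H3) in senescent against young cells at 20%. ERCC2, a helicase of the transcription factor that opens DNA at the lesion, differed by -0.58 ± 0.14 between young cells at 3% and 20% (adjusted p = 0.0142). The higher gene in senescent cells was DDB2, a damage sensor and target of p53, with 1.18 ± 0.18 (adjusted p = 0.000699); it was also higher in young cells at 3% against 20%, by 1.36 ± 0.18 (adjusted p = 0.000221). Called in either direction were 11% of all genes in late cells, 11.8% in young cells between the oxygen levels and 12.5% in senescent against young cells. In the same order the nucleotide excision list gave 13.3%, 20% and 13.3%. The base excision list gave 28.6% in late cells and 14.3% in young cells. Between old and young cells at 3%, 1.74% of all genes were called. These lists and genes carry no further test.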
